A study of Mus musculus with 50 samples.

Results

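Microglia, the resident macrophages of the brain, were compared between control mice at 6 weeks and control mice at 2 weeks of age. The comparison used the control libraries of both ages, 16 of the 50 RNA-seq libraries in the series, taken by their labels and column names. All 16 animals were homozygous for loxP-flanked Hdac1 and Hdac2 (label HDAC1/2-loxP/loxP) and carried no Cre, so neither gene was deleted. The 6-week group (45 days) held 4 controls of a constitutive knockout model and 4 of an inducible one, and the 2-week group (14 days) held 4 and 4. Constitutive-model controls were untreated. Inducible-model controls of both ages had been exposed before birth, when the dam was injected with 3 mg tamoxifen, given together with progesterone, on embryonic day 13. Each library came from a different animal, perfused through the heart before cells were sorted from the brain by flow cytometry, and p-values measure the spread between these animals. No animal was sampled at both ages, and the labels give no litter, sorting day or sequencing run, so age and cohort cannot be told apart.

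Microglia settle in the mouse brain before birth and multiply during the first postnatal weeks, when they also clear dying cells and synapses. They then slow their division and acquire an adult programme that depends on local signals such as TGF-beta and on ligands of the CSF1 receptor. Purine receptors, the fractalkine receptor, Toll-like receptors and the complement system are among the means by which they sense and respond to their surroundings.

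Libraries held 12307658 to 27211406 counts. Levels are CPM, counts scaled to the library total. Changes are edgeR log2 fold changes of 6 weeks over 2 weeks with the model as a blocking factor, ± the standard error, and a gene is said to have risen or fallen where the adjusted p was below 0.05. Sex was read from Xist and Y-linked counts: 6 females and 2 males at 6 weeks, against 5 females and 3 males at 2 weeks. Within a model the sexes were not balanced, since the constitutive controls were 4 females at 6 weeks against 1 female and 3 males at 2 weeks. The inducible controls were 2 females and 2 males at 6 weeks against 4 females at 2 weeks. Mitochondrially encoded genes took 0.317% to 0.671% of the counts at 6 weeks, against 0.551% to 0.857% at 2 weeks. Ribosomal protein genes took 0.166% to 0.195% at 6 weeks, against 0.219% to 0.279% at 2 weeks.

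The sorted cells carried the defining genes of microglia at both ages. The 12 markers examined summed to 57891 to 61373 CPM at 6 weeks, against 58298 to 64434 CPM at 2 weeks. Of these 12 genes none rose, 3 fell and 9 did not pass, with a median log2 change of 0.05, while 28.9% of all tested genes passed in either direction. Tmem119, a microglial surface protein, had 2505 to 3851 CPM (median 3107) at 6 weeks, against 2446 to 3266 CPM (median 2774) at 2 weeks. Its ranges overlapped and the change did not pass (log2 change 0.12 ± 0.08, adjusted p = 0.277). Cx3cr1, the fractalkine receptor, had a median of 7637 CPM at 6 weeks and 6525 CPM at 2 weeks (log2 change 0.10 ± 0.09, adjusted p = 0.457). The medians of Csf1r, the receptor that microglia need for survival, were 10821 CPM at 6 weeks and 11435 CPM at 2 weeks (log2 change -0.17 ± 0.08, adjusted p = 0.122). Among other markers that did not pass, changes were -0.01 ± 0.07 for Siglech, -0.24 ± 0.18 for Fcrls, 0.12 ± 0.11 for Gpr34, 0.17 ± 0.07 for Aif1 and 0.17 ± 0.06 for C1qa. C1qa encodes a chain of complement C1q and had an adjusted p of 0.0519, with 0.0358 to 0.0478 in the 6 alternatives in which it passed. In bulk RNA, a change in the amount of RNA per cell and a change in the share of cells that carry it cannot be told apart.

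The 3 defining markers that fell were P2ry12, Itgam and Sall1. P2ry12, the ADP receptor that guides microglial processes, had 7516 to 10918 CPM (median 8168) at 6 weeks, against 10438 to 14008 CPM (median 11535) at 2 weeks (log2 change -0.50 ± 0.08, adjusted p = 7.64e-05). The ranges overlapped, and the call was lost when all 50 libraries shared 1 estimate of the spread (adjusted p = 0.145). Itgam, which encodes the CD11b integrin chain, had 380.2 to 473 CPM (median 400.5) at 6 weeks, against 512 to 632 CPM (median 545) at 2 weeks, and every 6-week library lay below every 2-week library (log2 change -0.48 ± 0.07, adjusted p = 7.74e-06). Sall1, a transcription factor of microglial identity, had 578 to 909.6 CPM (median 865) at 6 weeks, against 878 to 1018 CPM (median 949.9) at 2 weeks (log2 change -0.25 ± 0.08, adjusted p = 0.0205). Its ranges overlapped, and the call was lost with all 50 libraries (adjusted p = 0.786) and in females alone (adjusted p = 0.092). Sall1 did not pass in constitutive controls alone (-0.10 ± 0.08, adjusted p = 0.417) and fell in inducible controls alone (-0.41 ± 0.12, adjusted p = 0.0218). The difference between models did not pass (0.30 ± 0.14, adjusted p = 0.437). Exons of P2ry12 share bases with Med12l, so reads of this unstranded library could come from either gene.

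Hdac1 and Hdac2, the histone deacetylase genes that carry the loxP sites, were expressed at both ages. Hdac1 (GRCm38 chr4:129516104-129542713, minus strand) had 12.8 to 18.9 CPM (median 16) at 6 weeks, against 16.2 to 19.0 CPM (median 18.3) at 2 weeks, and its small decrease (log2 change -0.26 ± 0.09, adjusted p = 0.0412) lost its call when any of 11 single libraries was left out, with adjusted p of 0.0501 to 0.0875. It was also lost with sex as a covariate (0.0514), without a filter on low counts (0.141), with all 50 libraries (0.631) and in females alone (0.389). Hdac2 (chr10:36974544-37001889, plus strand) had 64.4 to 77.1 CPM (median 69.7) at 6 weeks, against 59.8 to 82.2 CPM (median 71.6) at 2 weeks and did not pass (log2 change -0.07 ± 0.07, adjusted p = 0.455). The ranges of both genes overlapped between the ages.

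Over the whole transcriptome 2231 of 14889 tested genes rose (15%) and 2074 fell (13.9%), with a median log2 change of 0.01. These shares are the reference for every count of list members that rose or fell below. Among these calls 618 genes (4.15% of those tested) rose at least 2-fold, and 2.53% of those tested fell at least 2-fold. In 616 genes (4.14%) every 6-week library lay above every 2-week library, and in 414 (2.78%) every 6-week library lay below. The first principal component, which held 30.4% of the variance, put all 8 libraries of 6 weeks at 33.2 to 41.9 and all 8 of 2 weeks at -44.5 to -27.

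The models share no library, so each gave its own comparison of 4 against 4. In the constitutive-model controls 1222 of 13892 genes rose (8.80%) and 1241 fell (8.93%), and in the inducible-model controls 1140 of 14025 rose (8.13%) and 1260 fell (8.98%). Of the 13585 genes tested in both, 589 rose in both models, which was 49% of the 1203 that rose in the constitutive and 52.8% of the 1116 that rose in the inducible controls. Similarly, 593 fell in both, 48.9% of 1213 and 47.4% of 1251. Of the 1203 that rose in constitutive controls, 1088 had a positive change in inducible controls, and 1110 of the 1213 that fell had a negative one. Opposite calls were made for 17 genes. Across genes, which are not independent replicates, the log2 changes of the models had a Pearson r of 0.663 and a Spearman rho of 0.573. With sex as a covariate the separate comparisons gave fewer calls, 296 rises and 339 falls in constitutive and 725 rises and 786 falls in inducible controls.

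**Figure D1:**
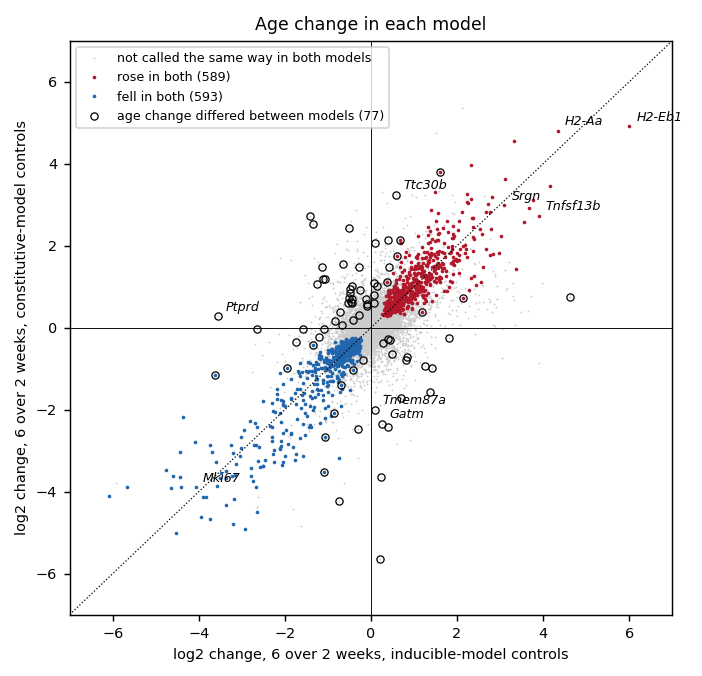
Log2 change from 2 to 6 weeks of each gene tested in both models, inducible-model controls on the x axis and constitutive-model controls on the y axis; 4 of 13585 genes lie outside the axes. Genes that rose in both models (589, red) and fell in both (593, blue) lie along the dotted line of equal change, and open circles mark 77 genes whose change differed between the models, such as Gatm, Tmem87a, Ttc30b and Ptprd.

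**Figure D2:**
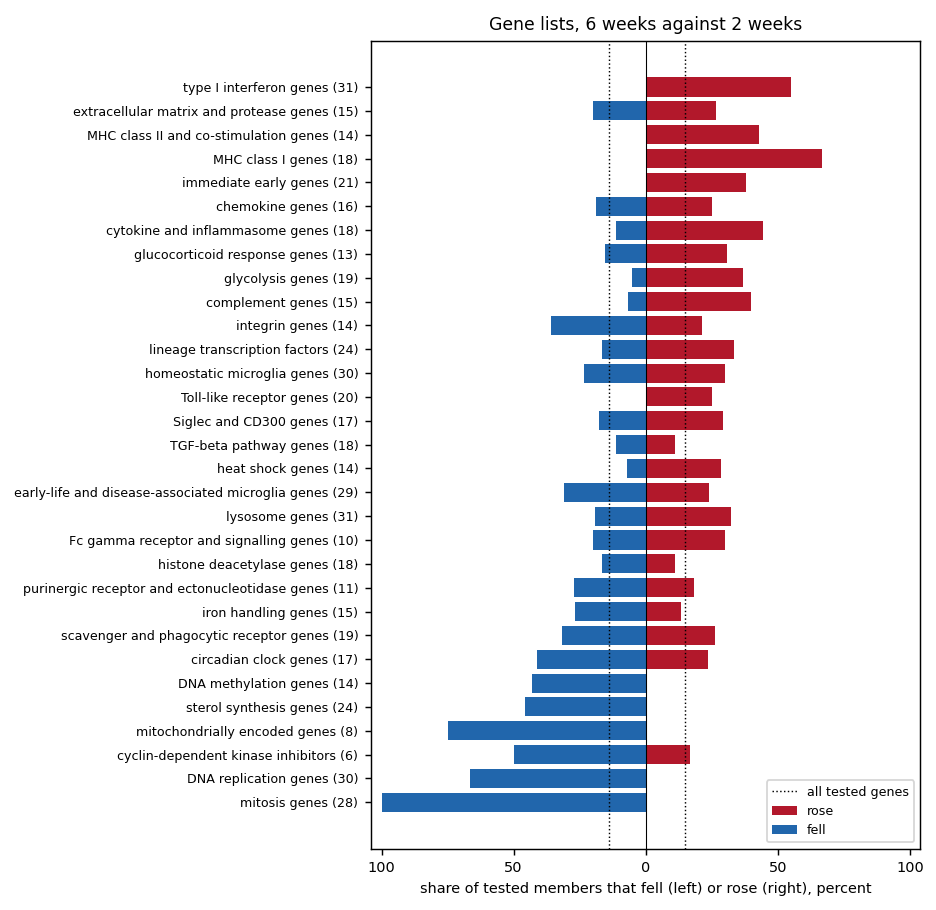
Share of the tested members of each gene list that fell (blue, left) or rose (red, right) at 6 weeks against 2 weeks, lists ordered by median log2 change, number of tested members in brackets. Dotted lines mark the shares of all tested genes, 13.9% fallen and 15% risen; all 28 mitosis genes fell, whereas 12 of 18 MHC class I and 17 of 31 type I interferon genes rose and none fell.

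Cell division genes showed the most uniform decrease of the lists examined. All 28 mitosis genes fell, against 13.9% of all tested genes, with a median log2 change of -2.78 against 0.01 over all genes. In 25 of them every 6-week library lay below every 2-week library, against 2.78% of all tested genes. In constitutive controls alone 28 fell and in inducible controls alone 27, and the age change of 1 member differed between the models. Mki67, the nuclear protein used as a mark of cycling cells, had 0.514 to 5.84 CPM (median 3.41) at 6 weeks, against 19.3 to 77.4 CPM (median 56.6) at 2 weeks (log2 change -3.96 ± 0.27, adjusted p = 1.95e-08). Top2a, the topoisomerase that untangles replicated DNA, had 1.66 to 6.42 CPM (median 3.58) at 6 weeks, against 18.0 to 72.7 CPM (median 46.2) at 2 weeks (log2 change -3.43 ± 0.19, adjusted p = 8.04e-11). Bub1, a spindle checkpoint kinase, had 0 to 1.22 CPM (median 0.529) at 6 weeks, against 1.42 to 13.3 CPM (median 7.85) at 2 weeks (log2 change -4.08 ± 0.45, adjusted p = 1.53e-06). None of the 3 genes had overlapping ranges between the ages. At birth (P0), in 7 control libraries, Mki67 had 157 to 321 CPM (median 216), so the order over the 3 ages was P0, 2 weeks, 6 weeks from high to low.

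The kinetochore proteins Cenpf and Cenpe and the cyclins Ccnb2 and Ccna2 followed, each with 6-week libraries below all 2-week ones. Cenpf had 2.56 to 5.27 CPM (median 3.42) at 6 weeks, against 8.33 to 35.3 CPM (median 20.0) at 2 weeks (log2 change -2.51 ± 0.17, adjusted p = 5.78e-10). Cenpe had 1.41 to 3.38 CPM (median 1.97) at 6 weeks, against 7.62 to 24.0 CPM (median 15.2) at 2 weeks (log2 change -2.77 ± 0.21, adjusted p = 3.40e-09). The B-type cyclin Ccnb2 changed by -2.78 ± 0.22, the A-type cyclin Ccna2 by -2.77 ± 0.22, and the spindle motor Kif11 by -3.95 ± 0.52 on the log2 scale. Among the 12 largest falls of all genes, with every 6-week library below every 2-week library and at least 5 CPM at the higher age, 11 are known for roles in the cell cycle or in repair during division. Besides Bub1, Kif11 and Mki67 these were Shcbp1 (-4.58 ± 0.34), the DNA glycosylase gene Neil3 (-4.40 ± 0.35), the kinetochore scaffold Knl1 (-4.32 ± 0.35), the spindle pole gene Aspm (-4.30 ± 0.46), the mitotic kinase Pbk (-4.20 ± 0.32), Spag5 (-3.97 ± 0.30), the centriole gene Stil (-3.87 ± 0.48) and the kinase Melk (-3.74 ± 0.47). The remaining one was Gpx3, a secreted glutathione peroxidase, with 0.285 to 0.973 CPM (median 0.371) at 6 weeks, against 3.09 to 13 CPM (median 9.24) at 2 weeks and 180.3 to 357 CPM (median 300.2) at P0 (log2 change -4.02 ± 0.24, adjusted p = 1.50e-10). Several of these genes had 0 counts in some 6-week libraries, so their fitted changes depend on the prior count. By limma-voom the changes were -4.59 for Kif11 and -4.90 for Aspm, and Aspm changed by -4.91 without the 2 libraries highest in neutrophil markers.

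Within each age Mki67 had a higher mean in constitutive-model than in inducible-model controls, a difference that was not tested. It had 3.75 to 5.84 CPM in constitutive and 0.514 to 3.06 CPM in inducible controls at 6 weeks, and 68.3 to 77.4 CPM and 19.3 to 44.9 CPM at 2 weeks. The age change of Mki67 was -3.89 ± 0.15 in constitutive and -4.07 ± 0.54 in inducible controls, and the difference did not pass (0.19 ± 0.52, adjusted p = 0.934).

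**Figure D3:**
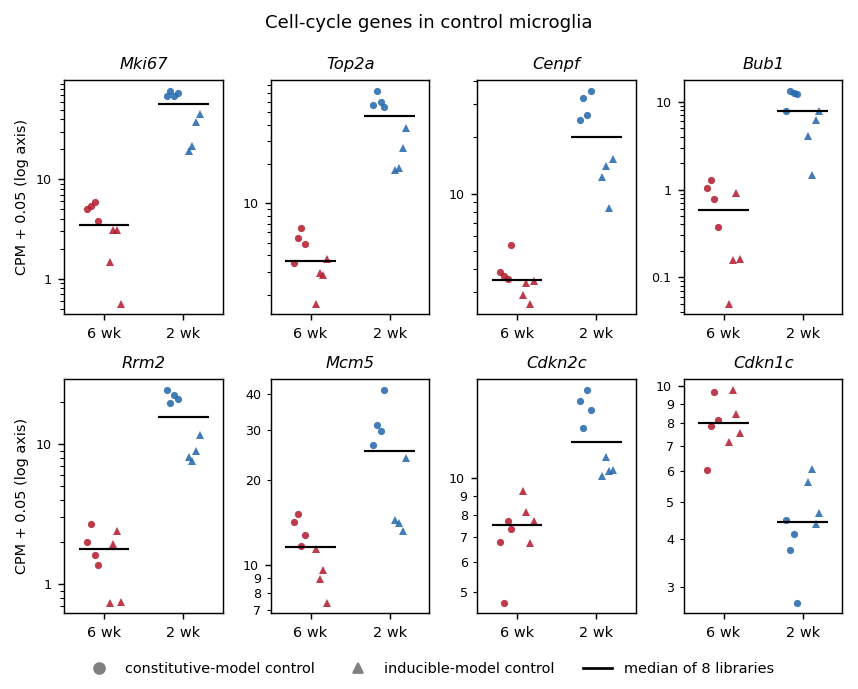
Level of 8 cell-cycle genes in each library (CPM + 0.05, log axis), 6 weeks left of 2 weeks, circles for constitutive-model and triangles for inducible-model controls, lines at the median of 8 libraries. Mki67, Top2a, Cenpf, Bub1, Rrm2 and Cdkn2c have no overlap between ages, with lower levels at 6 weeks, while Cdkn1c was higher at 6 weeks with overlapping ranges.

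Genes of DNA replication fell less far. Of 30 tested, 20 fell and none rose, with a median log2 change of -0.62, and 11 fell in females alone. In constitutive controls alone 21 fell, and in inducible controls alone 6 fell, while no member's difference between models passed. Rrm2, a subunit of the reductase that makes deoxynucleotides, had 0.687 to 2.63 CPM (median 1.73) at 6 weeks, against 7.57 to 24.4 CPM (median 15.7) at 2 weeks (log2 change -3.21 ± 0.24, adjusted p = 2.84e-09). Pole, the catalytic subunit of DNA polymerase epsilon, changed by -2.51 ± 0.26, and Mcm5, part of the replicative helicase, by -1.08 ± 0.14. Tyms, the thymidylate synthase, had a median of 15.2 CPM at 6 weeks and 23.6 CPM at 2 weeks (log2 change -0.66 ± 0.10, adjusted p = 2.84e-05), and its ranges overlapped. Among 6 tested inhibitors of cyclin-dependent kinases 1 rose and 3 fell, and in females alone 1 rose and 1 fell. In constitutive controls alone 1 rose and 2 fell, and in inducible controls alone 0 rose and 0 fell. Cdkn1c, which encodes p57, rose to a median of 7.97 CPM at 6 weeks, against 4.38 CPM at 2 weeks (log2 change 0.83 ± 0.15, adjusted p = 2.74e-04). Cdkn2c, which encodes p18, fell, with 4.65 to 9.22 CPM (median 7.49) at 6 weeks, against 10.1 to 17.1 CPM (median 12.4) at 2 weeks (log2 change -0.86 ± 0.15, adjusted p = 1.07e-04).

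Promoters of the mitosis genes are shown because these genes moved together and share short motifs. Late cell-cycle promoters are known to hold a CHR element (TTTGAA) and CCAAT boxes. In RefSeq promoters (GRCm38.p6, 250 bases before to 50 after the start), searched on both strands, TTTGAA and CCAAT occurred together in 16 of the 24 mitosis genes with an entry (66.7%), against 7.97% of all 27025 genes. TTTGAA, with or without CCAAT, was in 17 of the 24 (70.8%), against 20.2% of all, and the motifs do not overlap in sequence. In the 25 DNA replication genes with an entry, TTTGAA occurred in 3 (12%). The promoters of Top2a (chr11:99024140-99024439, minus strand), Cenpf (chr1:189688037-189688336, minus strand) and Cenpe (chr3:135212313-135212612, plus strand) follow, 5′ to 3′ in the direction of transcription, with TTTGAA and CCAAT of either strand in capitals.
Top2a: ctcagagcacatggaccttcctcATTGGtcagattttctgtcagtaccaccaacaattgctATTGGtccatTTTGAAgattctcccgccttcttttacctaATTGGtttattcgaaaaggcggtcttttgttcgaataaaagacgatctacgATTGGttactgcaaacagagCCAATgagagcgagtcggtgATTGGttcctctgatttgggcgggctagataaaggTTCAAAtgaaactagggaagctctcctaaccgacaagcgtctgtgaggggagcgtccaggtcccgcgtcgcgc
Cenpf: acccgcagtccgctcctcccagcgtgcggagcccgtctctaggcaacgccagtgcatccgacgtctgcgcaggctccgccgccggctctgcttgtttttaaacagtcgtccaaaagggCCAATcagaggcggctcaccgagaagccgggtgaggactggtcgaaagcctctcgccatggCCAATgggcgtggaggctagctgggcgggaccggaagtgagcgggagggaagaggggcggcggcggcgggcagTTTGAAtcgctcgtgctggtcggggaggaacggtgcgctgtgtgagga
Cenpe: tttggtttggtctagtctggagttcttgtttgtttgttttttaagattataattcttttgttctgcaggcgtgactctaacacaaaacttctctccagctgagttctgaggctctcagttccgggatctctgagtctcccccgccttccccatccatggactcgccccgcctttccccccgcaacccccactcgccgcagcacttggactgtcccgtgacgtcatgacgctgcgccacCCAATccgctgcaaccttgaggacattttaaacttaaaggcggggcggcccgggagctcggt
Top2a held 2 TTTGAA and 6 CCAAT matches, Cenpf 1 and 2, and Cenpe no TTTGAA and 1 CCAAT. Cenpe fell with the others, with log2 changes of -2.77 ± 0.21 for Cenpe, -3.43 ± 0.19 for Top2a and -2.51 ± 0.17 for Cenpf. A match describes the letters in this window and does not show binding.

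Genes of antigen presentation rose or did not pass. Of 18 MHC class I genes, which load peptides for display to CD8+ T cells, 12 rose and none fell, with a median log2 change of 0.47. In constitutive controls alone 6 rose, and in inducible controls alone 11 rose. H2-T23, a non-classical class I heavy chain, had 77.6 to 142 CPM (median 124) at 6 weeks, against 40.1 to 63.1 CPM (median 55) at 2 weeks (log2 change 1.04 ± 0.11, adjusted p = 2.94e-07). Tapbpl, a peptide editor, had 29.8 to 43.0 CPM (median 36.8) at 6 weeks, against 18.4 to 25.0 CPM (median 21.5) at 2 weeks (log2 change 0.7 ± 0.09, adjusted p = 3.40e-06). The ages did not overlap for either gene. The immunoproteasome subunits Psmb9, Psmb10 and Psmb8, which cut proteins into peptides, changed by 0.75 ± 0.11, 0.5 ± 0.09 and 0.42 ± 0.08, again with every 6-week library above every 2-week library. Class I heavy chain genes are near-identical copies of each other, so the split of reads among them is uncertain.

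Of 14 tested MHC class II and co-stimulation genes 6 rose and none fell, with a median of 0.51. H2-Aa, the alpha chain of I-A, had 6.03 to 18.4 CPM (median 9.80) at 6 weeks, against 0.102 to 0.879 CPM (median 0.421) at 2 weeks (log2 change 4.58 ± 0.35, adjusted p = 8.61e-09). H2-Eb1, the beta chain of I-E, had 1.77 to 15.6 CPM (median 5.92) at 6 weeks, against 0 to 0.559 CPM (median 0.0275) at 2 weeks (log2 change 5.35 ± 0.66, adjusted p = 1.20e-05), and the change was 6.00 without constitutive 2-week animal 77 and 4.48 in females alone. No library of 2 weeks reached the level of any 6-week library for either gene. H2-Ab1, the beta chain of I-A, changed by 1.82 ± 0.25. These genes were lowest at the middle age, since H2-Aa had 18.3 to 41.6 CPM (median 26.3) and H2-Eb1 9.71 to 24.5 CPM (median 14.8) at P0.

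Cd274, which encodes the T-cell inhibitory ligand PD-L1, had 11.2 to 24.3 CPM (median 15.2) at 6 weeks, against 1.63 to 5.18 CPM (median 2.96) at 2 weeks (log2 change 2.31 ± 0.20, adjusted p = 1.38e-08). Icosl, the ligand of the co-stimulatory receptor ICOS, had 89.3 to 117 CPM (median 105) at 6 weeks, against 57.3 to 89.7 CPM (median 70.1) at 2 weeks (log2 change 0.53 ± 0.08, adjusted p = 3.34e-05). Ages overlapped for Icosl and not for Cd274. Monocytes and border macrophages also carry class II. The 12 monocyte markers summed to 52.3 to 147 CPM at 6 weeks, against 21.1 to 72.9 CPM at 2 weeks, with 4 of 9 tested markers risen and 1 fallen, and the 13 border macrophage markers to 502 to 984 CPM at 6 weeks, against 691 to 951 CPM at 2 weeks. Their part in the class II levels was not tested.

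Of 31 tested type I interferon genes 17 rose and none fell, with a median log2 change of 0.66, and 11 rose in females alone. Ifnar2, a chain of the type I interferon receptor, had 243 to 283 CPM (median 261) at 6 weeks, against 166 to 202 CPM (median 187) at 2 weeks (log2 change 0.46 ± 0.05, adjusted p = 8.35e-07). Ifih1, the MDA5 sensor of double-stranded RNA, had 24.6 to 34.2 CPM (median 28.5) at 6 weeks, against 14.3 to 19.7 CPM (median 17.8) at 2 weeks (log2 change 0.66 ± 0.09, adjusted p = 4.78e-06). Usp18, a negative regulator of the receptor, had 7.03 to 12.5 CPM (median 9.88) at 6 weeks, against 3.89 to 6.76 CPM (median 5.27) at 2 weeks (log2 change 0.82 ± 0.14, adjusted p = 1.06e-04). In these 3 genes the ages did not overlap. Xaf1 changed by 0.82 ± 0.12 and Ifi209, of the interferon-inducible p200 family, by 1.77 ± 0.29. At P0 Ifih1 had 17.4 to 30.8 CPM (median 27.6), a range that overlapped those of both later ages.

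**Figure D4:**
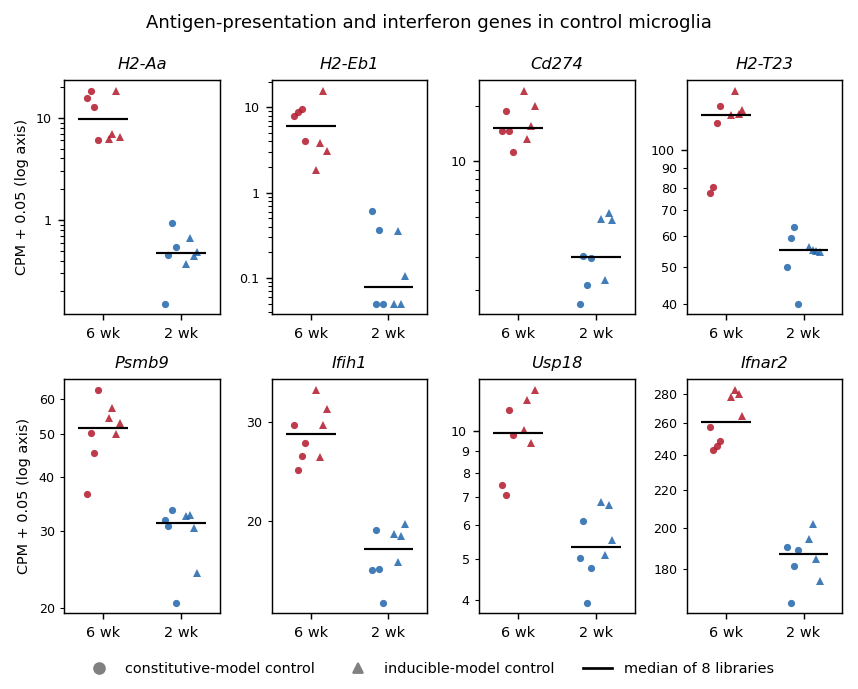
Level of 8 antigen-presentation and interferon genes in each library (CPM + 0.05, log axis), 6 weeks left of 2 weeks, circles for constitutive-model and triangles for inducible-model controls, lines at the median of 8 libraries. In all 8 genes every 6-week library lies above every 2-week library, with the widest gap in H2-Aa and H2-Eb1.

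Promoters of an interferon gene, a class I gene and a class II gene are shown for the short motifs that such promoters are known to hold. The letters GAAA, then any 2 bases, then GAAA again, the core of an interferon response element, occurred on either strand in 13 of the 23 interferon genes with a RefSeq promoter (56.5%), in 4 of 15 class I genes (26.7%) and in 3.99% of all genes. CCAAT, a part of the conserved class II promoter module, occurred in 8 of 10 class II and co-stimulation genes, but also in 12 of 15 class I, 19 of 24 mitosis and 16 of 17 sterol synthesis genes, against 41.1% of all. This GAAA repeat is in capitals in Ifih1 (chr2:62646206-62646505, minus strand) and H2-T23 (chr17:36032652-36032951, minus strand), and CCAAT in H2-Aa (chr17:34287774-34288073, minus strand).
Ifih1: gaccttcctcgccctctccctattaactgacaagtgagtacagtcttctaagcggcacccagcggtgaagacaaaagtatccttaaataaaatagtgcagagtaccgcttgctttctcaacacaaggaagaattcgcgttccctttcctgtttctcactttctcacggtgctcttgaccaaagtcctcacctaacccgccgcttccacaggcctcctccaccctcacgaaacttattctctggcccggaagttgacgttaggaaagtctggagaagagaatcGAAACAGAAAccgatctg
H2-T23: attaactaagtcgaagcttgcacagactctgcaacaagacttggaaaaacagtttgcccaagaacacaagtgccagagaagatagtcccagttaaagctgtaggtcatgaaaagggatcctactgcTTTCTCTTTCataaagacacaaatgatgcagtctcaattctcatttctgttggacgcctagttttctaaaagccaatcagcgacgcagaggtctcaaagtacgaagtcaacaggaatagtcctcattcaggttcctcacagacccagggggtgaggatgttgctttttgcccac
H2-Aa: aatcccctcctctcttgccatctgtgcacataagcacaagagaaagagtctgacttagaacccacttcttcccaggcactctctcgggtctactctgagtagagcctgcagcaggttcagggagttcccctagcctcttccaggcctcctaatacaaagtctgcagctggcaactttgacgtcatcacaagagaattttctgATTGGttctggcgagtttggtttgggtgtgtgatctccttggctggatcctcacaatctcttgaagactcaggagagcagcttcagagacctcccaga
Each of these 3 promoters held 1 match to the motif in capitals. The changes in level were 0.66 ± 0.09 for Ifih1, 1.04 ± 0.11 for H2-T23 and 4.58 ± 0.35 for H2-Aa.

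The 12 largest rises among genes with every 6-week library above every 2-week library, and at least 5 CPM at 6 weeks, were led by H2-Eb1 and H2-Aa, described above, and included signalling ligands of the TNF family and a serine protease. Tnfsf8, the CD30 ligand, had 3.30 to 13.6 CPM (median 5.63) at 6 weeks, against 0 to 1.42 CPM (median 0.290) at 2 weeks (log2 change 3.91 ± 0.56, adjusted p = 4.95e-05), and the change was 4.52 without inducible 2-week animal 2 and 4.62 by limma-voom. Tnfsf13b, the B-cell survival factor BAFF, had 15.4 to 48.7 CPM (median 30.4) at 6 weeks, against 1.97 to 3.82 CPM (median 3.08) at 2 weeks (log2 change 3.33 ± 0.20, adjusted p = 1.76e-10). St14, the membrane protease matriptase, had 11.9 to 20.9 CPM (median 17.4) at 6 weeks, against 0.565 to 2.77 CPM (median 1.75) at 2 weeks (log2 change 3.35 ± 0.21, adjusted p = 2.26e-10). Each of the 3 was low at both earlier ages, with P0 medians of 1.32, 2.73 and 3.13 CPM.

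Several other members of this group were also high at birth. Srgn, the proteoglycan core protein of secretory granules, had 97.0 to 141 CPM (median 114) at 6 weeks, against 7.64 to 16.2 CPM (median 13.9) at 2 weeks (log2 change 3.05 ± 0.13, adjusted p = 4.03e-13), and 68.7 to 185 CPM (median 102) at P0. Iqgap1, a scaffold of the actin cytoskeleton, had 18.1 to 103 CPM (median 76.7) at 6 weeks, against 0.426 to 14.9 CPM (median 3.30) at 2 weeks (log2 change 3.77 ± 0.5, adjusted p = 7.46e-05), and 96.8 to 244 CPM (median 151) at P0. The ion channel gene Trpv4 changed by 2.76 ± 0.34, and its median was 26.9 CPM at P0, 1.31 at 2 weeks and 8.46 at 6 weeks. The other 4 were Ildr2 (3.42 ± 0.31), Tcim (2.80 ± 0.22), Hspa12a (2.73 ± 0.24) and the sialyltransferase gene St8sia6 (2.68 ± 0.40).

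Among extracellular matrix and protease genes, some had narrow ranges and separate ages. Tgm2, tissue transglutaminase, had 53.8 to 86.3 CPM (median 62.2) at 6 weeks, against 9.66 to 14 CPM (median 10.3) at 2 weeks and 1.25 to 2.86 CPM (median 1.68) at P0 (log2 change 2.53 ± 0.10, adjusted p = 2.22e-13). Mmp14, a membrane-bound metalloprotease, had 55.4 to 71.3 CPM (median 63.6) at 6 weeks, against 18.8 to 32.1 CPM (median 22.6) at 2 weeks (log2 change 1.40 ± 0.10, adjusted p = 1.24e-09). In all, 4 of the 15 tested matrix genes rose and 3 fell (26.7% and 20%, against 15% and 13.9% of all tested genes). Sparc, a secreted matrix protein abundant in microglia, fell, with 4620 to 5516 CPM (median 4906) at 6 weeks, against 8805 to 10479 CPM (median 9310) at 2 weeks and 1348 to 2813 CPM (median 2561) at P0 (log2 change -0.94 ± 0.06, adjusted p = 2.26e-10), so that it was highest at the middle age.

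Homeostatic genes did not move as one group. Of 30 tested, 9 rose, 7 fell and 14 did not pass, with a median of 0.11. With all 50 libraries in the fit 3 rose and 3 fell. Cst3, the protease inhibitor cystatin C and one of the most abundant transcripts, had 22540 to 28276 CPM (median 25962) at 6 weeks, against 13074 to 22356 CPM (median 16723) at 2 weeks (log2 change 0.54 ± 0.09, adjusted p = 1.07e-04). Selplg, the P-selectin ligand, had 4329 to 5755 CPM (median 4861) at 6 weeks, against 3030 to 4296 CPM (median 3605) at 2 weeks (log2 change 0.38 ± 0.07, adjusted p = 3.28e-04). Upk1b, a tetraspanin, had 147 to 224 CPM (median 184) at 6 weeks, against 38.8 to 77 CPM (median 66.0) at 2 weeks and 0.0559 to 2.25 CPM (median 1.15) at P0 (log2 change 1.46 ± 0.12, adjusted p = 2.79e-08). In all 3 genes every 6-week library lay above every 2-week library, but Cst3 did not pass in inducible controls alone (0.29 ± 0.11, adjusted p = 0.071). Crybb1, a crystallin expressed by immature microglia, fell, with 159 to 271 CPM (median 223) at 6 weeks, against 408 to 615 CPM (median 509) at 2 weeks (log2 change -1.28 ± 0.10, adjusted p = 6.39e-09). The ages did not overlap for Crybb1.

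Among 24 lineage transcription factors 8 rose and 4 fell. Irf8, needed for microglial development, had 527 to 688 CPM (median 609.7) at 6 weeks, against 411 to 498 CPM (median 444) at 2 weeks (log2 change 0.38 ± 0.06, adjusted p = 1.08e-04). Runx1, a haematopoietic regulator, had a median of 166 CPM at 6 weeks and 122 CPM at 2 weeks (log2 change 0.38 ± 0.06, adjusted p = 3.59e-05). For both factors the ages did not overlap, but Irf8 did not pass in inducible controls alone (0.22 ± 0.09, adjusted p = 0.095). Tal1, a haematopoietic factor, fell, with 14.6 to 22.6 CPM (median 20.8) at 6 weeks, against 21.8 to 40.8 CPM (median 33.7) at 2 weeks (log2 change -0.82 ± 0.12, adjusted p = 1.28e-05), and its ranges overlapped. Of the 18 TGF-beta pathway genes tested 2 rose and 2 fell, 11.1% in each direction, below the shares of all tested genes. Without inducible 6-week animal 11, 8 of them rose.

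Genes linked to early-life and disease-associated microglia split as well, with 7 rises and 9 falls among 29 tested and a median of 0.03. Apoe, the lipid carrier apolipoprotein E, had 295 to 759.7 CPM (median 560.0) at 6 weeks, against 1241 to 2104 CPM (median 1747) at 2 weeks and 7727 to 12329 CPM (median 9886) at P0 (log2 change -1.66 ± 0.15, adjusted p = 2.91e-07). Igf1, a growth factor, had 1.12 to 4.94 CPM (median 3.23) at 6 weeks, against 9 to 21.6 CPM (median 13.3) at 2 weeks and 153 to 252 CPM (median 192) at P0 (log2 change -2.19 ± 0.22, adjusted p = 1.57e-07). By median both were highest at P0 and lowest at 6 weeks, and the 6-week and 2-week ranges did not overlap. Lpl, lipoprotein lipase, and Scd2, a fatty acid desaturase, changed by -0.92 ± 0.10 and -0.97 ± 0.09. Anxa5, which binds exposed phosphatidylserine, rose to 22.6 to 29.0 CPM (median 25.4) at 6 weeks, against 8.46 to 16.8 CPM (median 10.3) at 2 weeks, while P0 libraries held 141 to 283 CPM (median 163) (log2 change 1.21 ± 0.12, adjusted p = 1.40e-07).

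Mrc1, the mannose receptor and a marker of border macrophages, had 8.31 to 40.9 CPM (median 22.7) at 6 weeks, against 73.9 to 149 CPM (median 101) at 2 weeks and 591 to 3548 CPM (median 837) at P0 (log2 change -2.13 ± 0.22, adjusted p = 3.01e-06). Dab2, an endocytic adaptor on the same marker list, changed by -1 ± 0.11. These were the 2 of 11 tested border macrophage markers that fell, and none rose. Apoe and Gas6 are expressed by border macrophages too, and the part of such cells in their changes was not tested. Gas6, a ligand of the phagocytic receptors Axl and Mertk, had 158 to 230.3 CPM (median 176) at 6 weeks, against 279 to 426 CPM (median 389) at 2 weeks (log2 change -1.06 ± 0.09, adjusted p = 1.49e-08). Of 19 tested scavenger and phagocytic receptor genes 5 rose and 6 fell (26.3% and 31.6%, against 15% and 13.9% of all tested genes). Havcr2, the receptor TIM-3, had 319.5 to 432 CPM (median 370.1) at 6 weeks, against 166 to 248 CPM (median 214) at 2 weeks (log2 change 0.76 ± 0.08, adjusted p = 1.76e-07). Ages were separate for Gas6 and Havcr2.

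Among innate sensing genes, 5 of the 20 genes on the Toll-like receptor list rose and none fell, with a median of 0.09. In constitutive controls alone 5 rose, and in inducible controls alone 4 rose and 1 fell. The age change of 1 member differed between the models. Cd14, the co-receptor for lipopolysaccharide, had 479.8 to 639 CPM (median 532) at 6 weeks, against 261 to 368 CPM (median 298) at 2 weeks and 96.2 to 149 CPM (median 118) at P0 (log2 change 0.77 ± 0.06, adjusted p = 9.23e-09). Tlr3, the endosomal receptor for double-stranded RNA, changed by 0.55 ± 0.09, and Tlr12, a receptor for profilin of parasites, by 0.86 ± 0.11. Among 18 cytokine and inflammasome genes 8 rose and 2 fell, with 4 rises and no fall when all 50 libraries were fitted. Il6 had 13.8 to 22.1 CPM (median 17.5) at 6 weeks, against 4.05 to 9.51 CPM (median 7.01) at 2 weeks (log2 change 1.40 ± 0.15, adjusted p = 4.14e-07). Nlrp1b, an inflammasome sensor, had 58.5 to 86.0 CPM (median 74.6) at 6 weeks, against 37.5 to 48.5 CPM (median 42.7) at 2 weeks (log2 change 0.76 ± 0.08, adjusted p = 2.46e-07), and Casp1, the protease it activates, changed by 0.53 ± 0.09. No range of Cd14, Il6 or Nlrp1b overlapped between ages.

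Of 16 chemokine and chemokine receptor genes 4 rose and 3 fell (25% and 18.75%, against 15% and 13.9% of all tested genes). Cxcl16, a membrane-bound ligand of CXCR6, had 58.7 to 82.3 CPM (median 64.5) at 6 weeks, against 26.0 to 32.4 CPM (median 28.1) at 2 weeks (log2 change 1.22 ± 0.09, adjusted p = 2.84e-09). Ccl4, an inflammatory chemokine, had 44.0 to 75.6 CPM (median 62.5) at 6 weeks, against 9.96 to 34.8 CPM (median 15.9) at 2 weeks (log2 change 1.66 ± 0.23, adjusted p = 5.78e-05). Ccrl2, a receptor that presents chemerin, changed by 1.38 ± 0.12. Ccr1 fell instead, with 33.9 to 141 CPM (median 60.1) at 6 weeks, against 210.3 to 322 CPM (median 265) at 2 weeks (log2 change -1.95 ± 0.24, adjusted p = 2.66e-05). For these 4 genes the ages did not overlap.

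Purine receptor and ectonucleotidase genes had 2 rises and 3 falls among 11 tested (18.2% and 27.3%, against 15% and 13.9% of all tested genes). P2rx4, an ATP-gated channel, had 119 to 171 CPM (median 152) at 6 weeks, against 78 to 98.8 CPM (median 91.2) at 2 weeks (log2 change 0.68 ± 0.07, adjusted p = 2.92e-07). P2rx1, another ATP-gated channel, had 23.5 to 44.7 CPM (median 28.1) at 6 weeks, against 46.1 to 69.3 CPM (median 57.9) at 2 weeks (log2 change -0.92 ± 0.10, adjusted p = 3.44e-07). Both separated the ages, in opposite directions. P2ry6, the UDP receptor linked to phagocytosis, changed by -0.38 ± 0.07 and joined P2ry12 among the falls. Of 15 tested complement genes 6 rose and 1 fell, the fall being Itgam. C3ar1, the receptor for C3a, had 417 to 629 CPM (median 542) at 6 weeks, against 222 to 316 CPM (median 289) at 2 weeks (log2 change 0.86 ± 0.09, adjusted p = 1.37e-07), and Itgb2, the partner chain of Itgam in complement receptor 3, had 576 to 691 CPM (median 648) at 6 weeks, against 366 to 495 CPM (median 435) at 2 weeks (log2 change 0.53 ± 0.07, adjusted p = 4.56e-06). The 2 chains of that receptor therefore changed in opposite directions.

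Among 14 integrin genes 3 rose and 5 fell (21.4% and 35.7%, against 15% and 13.9% of all tested genes). Itgb1, the common beta1 chain for matrix binding, had 505 to 656 CPM (median 593) at 6 weeks, against 854 to 1024 CPM (median 944) at 2 weeks (log2 change -0.72 ± 0.07, adjusted p = 3.83e-08), and Itga6, a laminin receptor chain, changed by -0.56 ± 0.07. Of 10 Fc gamma receptor and signalling genes 3 rose and 2 fell (30% and 20%). Fcgrt, the neonatal Fc receptor, had 131 to 182 CPM (median 157) at 6 weeks, against 222 to 369.6 CPM (median 337) at 2 weeks (log2 change -1.04 ± 0.11, adjusted p = 2.63e-07), and Fcgr4, an activating receptor, had 19.7 to 32.5 CPM (median 26.9) at 6 weeks, against 8.41 to 17.3 CPM (median 14.1) at 2 weeks (log2 change 0.98 ± 0.14, adjusted p = 1.32e-05). Every 6-week library lay below the 2-week range for Fcgrt and above it for Fcgr4. Of 17 tested Siglec and CD300 genes 5 rose and 3 fell (29.41% and 17.65%), including the sialic acid receptor Siglecf (-1.12 ± 0.15), the activating receptor Cd300lb (2.02 ± 0.25) and Lilra5 (1.31 ± 0.16).

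Lysosomal genes were divided, with 10 rises and 6 falls among 31 and a median of 0.02, and 5 rises and 3 falls in females alone. Cathepsins moved in both directions. Ctsc, which activates serine proteases, had 870.4 to 1158 CPM (median 1009) at 6 weeks, against 496 to 632 CPM (median 580.1) at 2 weeks (log2 change 0.77 ± 0.08, adjusted p = 9.29e-08), and Ctsf had 348 to 459 CPM (median 401) at 6 weeks, against 538 to 656 CPM (median 591) at 2 weeks (log2 change -0.62 ± 0.07, adjusted p = 7.64e-07). Ctsh and Ctsz changed by 0.72 ± 0.08 and 0.5 ± 0.06, and Ctsd by 0.46 ± 0.07, a call lost with all 50 libraries (adjusted p = 0.0702). Ctsc and Ctsf each had separate ages. Of 15 iron handling genes 2 rose and 4 fell (13.3% and 26.7%, against 15% and 13.9% of all tested genes), with no fall in females alone. The rises were Fth1, the ferritin heavy chain (0.73 ± 0.09), and Slc11a1, the phagosomal metal transporter (0.39 ± 0.06).

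Sterol synthesis genes, controlled together by SREBP2, fell or did not pass. Of 24 tested, 11 fell and none rose, with a median of -0.36. Cyp51, lanosterol demethylase, had 19.2 to 28.6 CPM (median 22.2) at 6 weeks, against 27.7 to 47.7 CPM (median 38.6) at 2 weeks (log2 change -0.75 ± 0.10, adjusted p = 1.14e-05). Squalene epoxidase, Sqle, changed by -0.97 ± 0.20. Ranges overlapped for both. Msmo1, a methylsterol oxidase, changed by -0.39 ± 0.08 without overlap. Selenop, a selenium carrier that is among the most abundant transcripts, had 2552 to 3061 CPM (median 2931) at 6 weeks, against 3639 to 4688 CPM (median 3938) at 2 weeks (log2 change -0.54 ± 0.07, adjusted p = 2.17e-06).

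Glycolysis genes rose in 7 of 19 cases and fell in 1, with a median of 0.20. Pfkfb3, which makes the activator of phosphofructokinase, had 118 to 159.5 CPM (median 128) at 6 weeks, against 73.4 to 113 CPM (median 83.3) at 2 weeks (log2 change 0.56 ± 0.08, adjusted p = 1.94e-05), and Aldoa, an aldolase, changed by 0.54 ± 0.07. Of 8 tested mitochondrially encoded genes 6 fell and none rose, but 0 of 8 fell in females alone, with a median log2 change of -0.39 against -0.47 over all libraries. In constitutive controls alone 7 fell, and in inducible controls alone none fell. The ribosomal RNA gene mt-Rnr2 is not among these 8 genes. It had 925 to 1958 CPM (median 1188) at 6 weeks, against 1776 to 2880 CPM (median 2589) at 2 weeks (log2 change -1.03 ± 0.11, adjusted p = 7.87e-07). Unlike the 8 genes, mt-Rnr2 fell in inducible controls alone (log2 change -1.08 ± 0.17, adjusted p = 9.08e-04). Among the 8, mt-Cytb, cytochrome b, changed by -0.61 ± 0.14, a call lost in females alone (adjusted p = 0.122). Both ranges overlapped. The mitochondrial share of counts, which includes these 2 genes, had a median of 0.388% at 6 weeks, against 0.678% at 2 weeks.

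Circadian clock genes fell in 7 and rose in 4 of 17 cases. Cry1, a repressor of the clock, had 4.35 to 11.7 CPM (median 7.97) at 6 weeks, against 14.5 to 21.8 CPM (median 18.5) at 2 weeks (log2 change -1.24 ± 0.15, adjusted p = 1.34e-06), and Nr1d1, the nuclear receptor REV-ERB alpha, had 1.56 to 9.68 CPM (median 4.5) at 6 weeks, against 0.633 to 1.97 CPM (median 0.936) at 2 weeks (log2 change 2.08 ± 0.28, adjusted p = 6.97e-06). The labels give no time of day, and in females alone 2 clock genes fell and 2 rose. Of 13 glucocorticoid response genes 4 rose and 2 fell. Hif3a had 0.240 to 2 CPM (median 1.2) at 6 weeks, against 3.32 to 7.99 CPM (median 5.89) at 2 weeks and 30.4 to 167 CPM (median 72.4) at P0 (log2 change -2.36 ± 0.29, adjusted p = 2.17e-06), and Nr3c1, the glucocorticoid receptor itself, had a median of 317 CPM at 6 weeks and 246 CPM at 2 weeks (log2 change 0.36 ± 0.06, adjusted p = 1.53e-04). Of 21 immediate early genes, which respond within minutes to stimulation and to cell isolation, 8 rose and none fell, with 13 rises when the constitutive 6-week control No_396 was left out and 4 in females alone. In constitutive controls alone 5 rose and 2 fell, and in inducible controls alone 3 rose and none fell. The rises over both models included Nr4a1 (2.11 ± 0.30), Btg2 (1.17 ± 0.12) and Atf3 (0.95 ± 0.16). Of 14 heat shock genes 4 rose and 1 fell, with no rise in females alone or by limma-voom. No heat shock gene rose in either model alone, and 2 fell in constitutive controls alone.

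Of 14 DNA methylation genes 6 fell and none rose. Tet1, a 5-methylcytosine oxidase, had 21.8 to 38.7 CPM (median 26.8) at 6 weeks, against 41.6 to 51.7 CPM (median 46.3) at 2 weeks (log2 change -0.77 ± 0.10, adjusted p = 5.08e-06). Tet3, of the same family, changed by -0.55 ± 0.10 and the maintenance methyltransferase Dnmt1 by -0.76 ± 0.11. Uhrf1, which recruits Dnmt1 to replicated DNA, changed by -1.91 ± 0.30 and is also on the list of DNA replication genes. Of 18 histone deacetylase genes 2 rose (11.1%) and 3 fell (16.7%), near the shares of all tested genes (15% and 13.9%). Hdac11, the class IV member, had 8.73 to 14.2 CPM (median 11.6) at 6 weeks, against 3.95 to 8.15 CPM (median 6.21) at 2 weeks (log2 change 0.93 ± 0.14, adjusted p = 4.24e-05). Ages were separate for Tet1 and Hdac11.

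Markers of other cells differed in level. The 13 neutrophil markers summed to 927 to 1723 CPM at 6 weeks, against 469.6 to 1217 CPM at 2 weeks, with 6 of 12 tested risen and 2 fallen. Taken alone, constitutive controls had 1 rise and inducible controls 10 rises and 1 fall. The log2 change of S100a8 was 0.6 ± 0.65 (adjusted p = 0.595) in constitutive controls and 2.45 ± 0.29 (adjusted p = 7.52e-04) in inducible controls, and the difference between models did not pass (-1.85 ± 0.73, adjusted p = 0.358). S100a8 had 70.2 to 241 CPM (median 129) at 6 weeks, against 20.9 to 124 CPM (median 33.0) at 2 weeks (log2 change 1.53 ± 0.46, adjusted p = 0.0227), and S100a9 had 97.4 to 294 CPM (median 168) at 6 weeks, against 25.6 to 163 CPM (median 32.4) at 2 weeks (log2 change 1.63 ± 0.48, adjusted p = 0.0211). The ranges of both overlapped, both calls were lost without the 2 libraries highest in these markers (log2 change 1.23, adjusted p = 0.0668, and 1.35, adjusted p = 0.0598), and that of S100a8 was lost without inducible 2-week animal 1 (0.0501). In females alone the changes were 2.36 and 2.5. Csf3r, which microglia express too, had 498 to 634 CPM (median 549.6) at 6 weeks, against 329 to 409 CPM (median 363) at 2 weeks (log2 change 0.56 ± 0.07, adjusted p = 2.11e-06). Cxcr2, the chemokine receptor of mature neutrophils, fell, with 0 to 4.08 CPM (median 2.27) at 6 weeks, against 4.47 to 12.6 CPM (median 9.79) at 2 weeks (log2 change -2.09 ± 0.41, adjusted p = 0.00108), a call lost in females alone (adjusted p = 0.0867). Without the 2 libraries highest in neutrophil markers 1 neutrophil marker rose and 2 fell, while 28 mitosis genes fell, 9 class I genes rose and 16 interferon genes rose. With sex as a covariate 10 of 12 neutrophil markers rose, 2 rose without inducible 2-week animal 1, and 3 rose when any of 10 other single libraries was left out. Leaving out each of the remaining libraries in turn gave 6 rises in 2 cases and 8 rises in 3 cases.

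Of the 13 lymphocyte markers 12 stayed below 1 CPM in all 16 libraries, and the other, Cd79b, had 36.6 to 64.3 CPM (median 53) at 6 weeks, against 71.5 to 97.0 CPM (median 87.0) at 2 weeks (log2 change -0.76 ± 0.10, adjusted p = 3.15e-06). The 16 neuron markers summed to 5.95 to 24.2 CPM at 6 weeks, against 7.37 to 16.4 CPM at 2 weeks, with 7 of them below 1 CPM throughout. The 13 astrocyte markers summed to 341 to 536 CPM at 6 weeks, against 212 to 286 CPM at 2 weeks, and most of that was Slc1a3 with 332 to 529.6 CPM (median 381) at 6 weeks, against 206 to 279.5 CPM (median 235) at 2 weeks (log2 change 0.71 ± 0.09, adjusted p = 4.57e-06), a call lost with all 50 libraries (adjusted p = 0.054). Oligodendrocyte lineage markers summed to 108 to 148 CPM at 6 weeks, against 97.3 to 119 CPM at 2 weeks. Mag, a myelin protein, was at a median of 19.4 CPM at 6 weeks and 12.1 CPM at 2 weeks (log2 change 0.59 ± 0.12, adjusted p = 0.00102), a call lost in females alone (adjusted p = 0.0531). Vascular markers summed to 44.4 to 77.9 CPM at 6 weeks, against 61.1 to 78.5 CPM at 2 weeks, and erythroid markers to 0.687 to 2.75 CPM at 6 weeks, against 1.65 to 17.4 CPM at 2 weeks, with 3 of 5 tested erythroid markers fallen.

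The age change differed between the models in 90 of 14889 genes (0.604%), 50 with a change more positive in constitutive than in inducible controls and 40 with the reverse. Gatm, which makes the creatine precursor guanidinoacetate, had the smallest p-value. In constitutive controls it averaged 199 ± 13.1 CPM at 6 weeks and 989 ± 101 CPM at 2 weeks, and in inducible controls 242 ± 20.2 CPM at 6 weeks and 193 ± 15 CPM at 2 weeks (SD, n = 4 each). The constitutive 2-week group alone stood high, and the difference of the log2 changes, constitutive minus inducible, was -2.61 ± 0.14, adjusted p = 8.05e-11. At P0 the constitutive controls had 558, 1350, 1437 and 1366 CPM and the inducible ones 499 to 602 CPM. Tmem87a, a Golgi membrane protein, was likewise high in the constitutive 2-week group, with 23.3 ± 2.09 CPM at 6 weeks and 91.5 ± 7.30 CPM at 2 weeks in constitutive controls, 27.5 ± 2.52 CPM and 24.7 ± 2.60 CPM in inducible controls (difference -2.10 ± 0.15, adjusted p = 2.51e-08).

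Fmn1, an actin-nucleating formin, averaged 33.2 ± 4.27 CPM at 6 weeks and 56.5 ± 9.48 CPM at 2 weeks in constitutive controls, and 43.8 ± 8.32 CPM at 6 weeks and 23.6 ± 1.54 CPM at 2 weeks in inducible controls (difference -1.63 ± 0.19, adjusted p = 1.60e-04). It fell in constitutive controls taken alone and rose in inducible controls taken alone. Ttc30b, a gene of intraflagellar transport, was high in constitutive controls at 6 weeks, with 21.2 ± 3.70 CPM against 2.18 ± 0.562 CPM at 2 weeks, and had 4.96 ± 0.944 CPM at 6 weeks and 3.17 ± 0.962 CPM at 2 weeks in inducible controls (difference 2.66 ± 0.35, adjusted p = 3.86e-04). Ptprd, a receptor phosphatase of synapse formation, was low in inducible controls at 6 weeks, 0.416 ± 0.0812 CPM, against 4.68 ± 1.09 CPM at 2 weeks, and had 3.94 ± 1.49 CPM at 6 weeks and 3.19 ± 0.840 CPM at 2 weeks in constitutive controls (difference 3.81 ± 0.46, adjusted p = 1.70e-04).

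**Figure D5:**
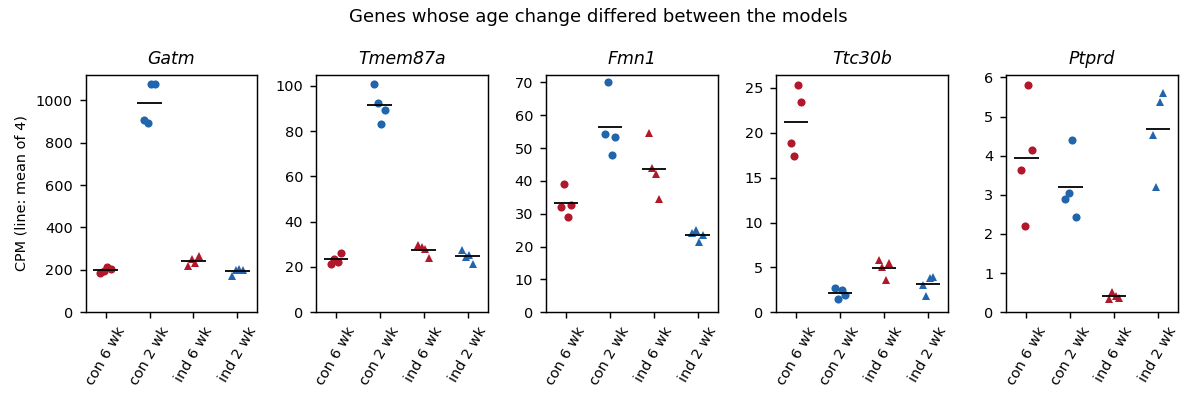
Level (CPM, from 0) of 5 genes whose age change differed between the models, in each control library of the constitutive (con, circles) and inducible (ind, triangles) model, 6 weeks left of 2 weeks, lines at the mean of 4. Gatm and Tmem87a are high in the constitutive 2-week group, Ttc30b is high in the constitutive 6-week group and Ptprd is low in the inducible 6-week group.

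By chromosome, shares of the genes whose change differed between models lay above and below the shares of tested genes, which was not tested. Gatm, Tmem87a and Fmn1 are on chromosome 2 (chr2:122594467-122611303, minus strand, chr2:120355312-120404113, minus strand and chr2:113327736-113716767, plus strand). Of the 90 genes, 14 were on chromosome 6 (15.6%, against 5.37% of tested genes), 13 on chromosome 1 (14.4%, against 6.87%), 13 on chromosome 2 (14.4%, against 7.87%), 7 on chromosome 15 (7.78%, against 3.54%) and 4 on Y (4.44%, against 0.0403%). Lower shares than in tested genes were seen on chromosome 7 (4.44%, against 8.09%), 11 (3.33%, against 8.07%) and 5 (2.22%, against 7.23%), among others. With sex as a covariate 13 genes differed, 5 above and 8 below 0, and Ttc30b no longer passed (adjusted p = 0.0916), while Gatm (3.43e-08), Tmem87a (8.42e-06), Fmn1 (0.0369) and Ptprd (0.0369) still passed. The 4 genes on Y are carried by males only, and the males were 3 constitutive controls at 2 weeks and 2 inducible controls at 6 weeks. For the genes not on Y, whether the difference goes with the model, the tamoxifen or the breeding of these cohorts cannot be told apart. The part of sex was not tested beyond the covariate. In constitutive 2-week controls the 1 female, animal 77, had 909 CPM of Gatm and 101 CPM of Tmem87a. The 3 males of that group had 894 to 1076 CPM of Gatm and 83.2 to 92.6 CPM of Tmem87a.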

How the data were processed

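RNA-seq of sorted microglia was analysed from the counts per gene that the authors deposited. Per the submitters' processing notes, CASAVA 1.8.2, STAR 2.5.2b, featureCounts 1.5.1 of Subread, limma 3.28.21 and the build GRCm38 were used. The annotation release and strand setting are not given in the sources used here. Libraries were made from PCR-amplified SMARTer v4 cDNA by Nextera XT, which does not mark strand, per the labels' protocols. Amplified reads without molecular identifiers are not independent molecules. The CPM table the authors deposited equals count over library total on that scale within 4.90e-06, and levels are printed in that unit. The deposited voom table was not used. Of 48526 genes, 48058 matched a symbol of GENCODE vM21 (GRCm38). The 468 others held 0.058% of the counts.

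The 16 control libraries of 6 and 2 weeks were grouped by the labels and column names. The choice of this comparison and of the gene lists was made with earlier results of these data known, while the libraries follow from the labels alone. The 6-week and 2-week groups were compared in R 4.3.3 with edgeR 4.0.16 (filterByExpr, TMM, quasi-likelihood F test with robust=TRUE, model as block, Benjamini-Hochberg, threshold 0.05). Each model was also fitted alone, and the difference of their age changes as an interaction. Each standard error was the absolute log2 change divided by sqrt(F). Alternatives used DESeq2 1.42.0, limma 3.58.1 (voom), other filters, sex as a covariate and fewer or more libraries. The fits were tested on simulated data. In 24 replicate pairs the chi-square divided by the number of genes was 9.98 to 51.2, above counting noise. No library was a second copy of another of its own group, and pairs across groups were not compared.

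Genes were named by a rule: the 12 largest rises and falls with at least 5 CPM and no overlap of libraries, the 6 largest gains and losses of mean CPM, up to 5 called members of each list by adjusted p, the microglia markers, Hdac1 and Hdac2, and the 6 smallest interaction p-values. Some genes that meet it are not reported here. Of 141 genes printed with values, 35 share exon bases with another gene, where unstranded counts can come from either. Promoters are from RefSeq.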

Additional observations from a re-analysis of the deposited data

Results flagged for a closer look

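Among 292 groups of libraries examined for the printed genes, 18 held a library that stood apart, and chance alone marks about 1 group in 20. At 6 weeks the constitutive control No_396 was high for Gpr34 (4880 CPM, the others 2882 to 3637), Pbk (1.99 CPM, the others 0 to 0.917) and Gpx3 (0.973 CPM, the others 0.285 to 0.599). Constitutive animal 400 was high for Cenpf (5.27 CPM, the others 2.56 to 3.81) and Tgm2 (86.3 CPM, the others 53.8 to 64.7). Inducible animal 11 was low for Sall1 (578 CPM, the others 758 to 910) and high for mt-Rnr2 (1958 CPM, the others 925 to 1324). Inducible animal 1 was high for Ccrl2 (35.5 CPM, the others 20.9 to 27.0) and low for Aldoa (149.7 CPM, the others 191 to 225).

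At 2 weeks inducible animal 3 was low for C1qa (2504 CPM, the others 2957 to 3361) and Hdac1 (16.2 CPM, the others 17.8 to 19.0) and high for Igf1 (21.6 CPM, the others 9 to 14.9). Inducible animal 1 was high for Tgm2 (14.0 CPM, the others 9.66 to 11.1) and low for C3ar1 (221 CPM, the others 284 to 316). Inducible animal 4 was low for Srgn (7.64 CPM, the others 12.2 to 16.2) and Ccrl2 (6.49 CPM, the others 8.72 to 10.7). Inducible animal 2 was high for Nr1d1 (1.97 CPM, the others 0.633 to 1.22), and constitutive animal 81 for Anxa5 (16.8 CPM, the others 8.46 to 11.9).

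The age change differed between the models, by the interaction test, for 9 of the printed genes. Adjusted p-values were 8.05e-11 for Gatm, 2.51e-08 for Tmem87a, 1.60e-04 for Fmn1, 1.70e-04 for Ptprd, 3.86e-04 for Ttc30b and 7.18e-04 for mt-Nd3. They were 0.0226 for Atf3, 0.0262 for Fcgrt and 0.0286 for St8sia6. The log2 change of St8sia6 was 3.80 in constitutive and 1.61 in inducible controls. The log2 change of Atf3 was 1.48 in constitutive controls and 0.43, which did not pass, in inducible controls. That of Fcgrt was -1.40 and -0.71. The mitochondrial gene mt-Nd3 had no counts in any constitutive 6-week library, against 121 summed counts in constitutive controls at 2 weeks. In inducible controls it had 101 summed counts at 6 weeks and 111 at 2 weeks.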

How the results depend on the processing

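Over both models the counts of 2231 rises and 2074 falls stayed within 1.5 times with other normalizations, filters, tests and covariates, and were 2007 to 2177 rises and 1884 to 2083 falls when 1 library was left out. In females alone they were 1122 and 1008, with fewer libraries fitted. This setting and the one without the 2 libraries highest in neutrophil markers were chosen after seeing the data. Constitutive controls alone gave 939 to 1515 rises and 944 to 1622 falls without 1 library, and 296 and 339 with sex as a covariate. Inducible controls alone gave 843 to 1158 rises and 866 to 1301 falls, and 725 and 786 with sex. The cause of these differences was not tested.

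For the difference between models, 50 genes above and 40 below 0 became 131 and 113 by DESeq2, 105 above without a filter on low counts, and 5 and 8 with sex as a covariate. Leaving out 1 library gave 21 to 94 above and 19 to 60 below. The counts above and below 0 were 23 and 19 without constitutive 2-week animal 81, 26 and 22 without constitutive 6-week control No_376, 31 and 25 without inducible 2-week animal 1, 21 and 22 without inducible 2-week animal 2 and 31 and 21 without inducible 6-week animal 1. Genes above 0 numbered 94 without constitutive 6-week control No_396 and 25 without inducible 6-week animal 10.

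Of 141 printed genes, 127 kept direction and side of the threshold in every alternative run. Siglech, which did not pass, had a change of -0.01 that became 0.000189 with at least 5 CPM in a group, and ranged from -0.0454 to 0.0183 when 1 library was left out. C1qa passed by DESeq2 (0.16), with the 5 CPM filter (0.18), without the model block (0.17) and by limma-voom (0.17). It also passed without the constitutive 6-week control No_396 or inducible 6-week animal 1, and Aif1 passed without inducible 2-week animal 2 (0.21). No paired analysis was possible because animal numbers name different animals and the groups compared share fewer than 2 numbers. At 12307658 to 27211406 counts per library, a change that did not pass is not shown to be absent.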
